A study of Mus musculus with 10 samples.

Results

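Complement is a set of plasma and cell-surface proteins that marks microbes and dying cells for removal. In the classical pathway C1q binds its target and starts a chain of proteases in which C2 takes part. In the alternative pathway factor B (Cfb) and properdin (Cfp) form and stabilise the enzyme that cleaves C3, and the small fragments released from C3 and C5 call in leukocytes through the receptors C3ar1 and C5ar1. In the lung, macrophages make C1q, while epithelial and stromal cells also make early components.

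The 9 genes C1qa, C1qb, C1qc, C2, C3, C3ar1, C5ar1, Cfb and Cfp were chosen by name, and a probe set counted for a gene when the array annotation gave it that symbol and no other. This gave 11 probe sets for 8 of the 9 genes, out of 22626 probe sets and 12393 genes with such a symbol. No probe set carried the symbol C3 alone, so C3 is not analysed here. Where a gene had several probe sets, the brightest on average over the 10 arrays stood for it. The 3 left over, the second and the third for C1qb and the second for C3ar1, served as a check.

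RNA came from whole lung of male C57BL/6 mice, an inbred strain, aged 6 to 8 weeks. 5 mice breathed room air (normoxia) and 5 were exposed to intermittent hypoxia, in which inspired oxygen falls and recovers repeatedly; no genetic change or other agent is named for either group. Every lung had an array to itself, of the Affymetrix mouse 430A 2.0 type. The sources used here state neither the oxygen levels nor the length of exposure. The deposited values are log2 levels from 3.99 to 14.94, so a difference of 1 is a doubling. Array medians lay between 7.69 and 7.73. Normoxia arrays 2, 3 and 4 had a narrower spread over probe sets (SD 1.89 to 1.93) than the other 7 (1.99 to 2.05), and the members' values without these 3 arrays are given beside them where they moved by over 1.5 times. The lung markers Sftpc of type 2 cells, Scgb1a1 of club cells and Ager of type 1 cells stood at mean log2 levels of 14.60, 14.59 and 12.90 in normoxia and 14.59, 14.58 and 13.09 in intermittent hypoxia. Because whole tissue was measured, more cells of a type and more RNA per cell cannot be told apart. Precision is set by having 5 arrays a group.

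Of the 8 measured complement genes 0 passed the limma test at an adjusted p below 0.05, where 12.5% of all 12393 genes did (8.93% higher and 3.6% lower). Their limma adjusted p ran from 0.0660 for C1qc to 0.819 for Cfb. At an unadjusted limma p below 0.05 there were 3 of 8, C1qa, C1qc and C5ar1, against 32.6% of all genes. The median log2 difference of the 8 genes was 0.06, against 0.01 over all genes. This background varied with signal: the median was 0.096 over the brighter probe sets, with a mean level of 7.70 or more, and 0.014 over all probe sets. Of the 8 genes 6 were among the brighter ones, while C5ar1 and Cfp were not. Beside that brighter background a median of 0.06 is not high. Whether signal level accounts for any of the 8 differences was not tested. The groups overlapped in every one of the 8 genes, while they did not overlap in 8.61% of all genes. The largest measured differences were in the C1q chains C1qc and C1qa, at 1.31-fold and 1.25-fold, and the values of the receptor C5ar1 were 0.890 of normoxia.

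**Figure D1:**
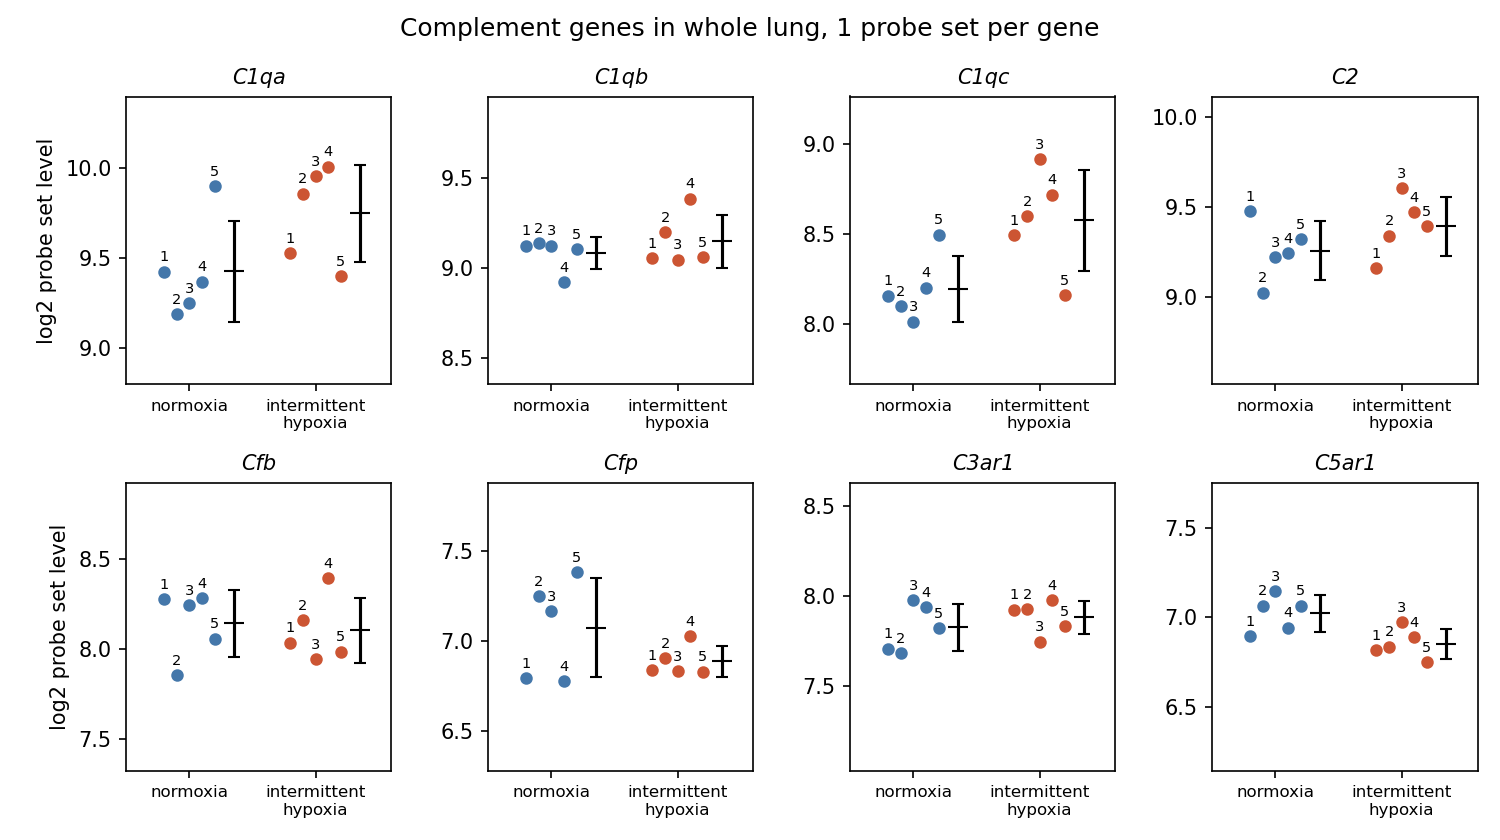
Log2 probe set level of each measured complement gene, 1 probe set per gene, in 5 normoxia (blue) and 5 intermittent hypoxia (red) lungs; numbers are the array numbers, and bars beside the points give mean and SD. Each panel spans the same height in log2 units around its own values, and the groups overlap in all 8 panels.

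C1q is built from A, B and C chains, which C1qa, C1qb and C1qc encode. In the RefSeq gene table of GRCm38.p6 the 3 genes are direct neighbours on chromosome 4, in the order C1qb, C1qc, C1qa. The RefSeq promoter table, which holds 250 bases before to 50 bases after each start, has windows for C1qb and C1qc and 6 of the 9 genes in all; C1qa, C2 and Cfb are not among them. These windows are shown because the probe set of C1qc varied between lungs together with 1 of the 3 probe sets of C1qb, the third, though not with the main one. Both are written 5′ to 3′ on the minus strand of GRCm38.p6, C1qb at chr4:136886151-136886450 and C1qc at chr4:136892865-136893164. Capitals mark GAGGAA or its reverse complement, the core that the myeloid factor PU.1 binds.
C1qb: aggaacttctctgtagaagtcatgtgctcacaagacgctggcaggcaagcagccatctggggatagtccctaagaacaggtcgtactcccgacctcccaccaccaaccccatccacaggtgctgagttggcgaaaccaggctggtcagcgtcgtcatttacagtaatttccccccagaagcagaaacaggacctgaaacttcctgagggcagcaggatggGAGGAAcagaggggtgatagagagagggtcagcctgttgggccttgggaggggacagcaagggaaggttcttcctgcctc
C1qc: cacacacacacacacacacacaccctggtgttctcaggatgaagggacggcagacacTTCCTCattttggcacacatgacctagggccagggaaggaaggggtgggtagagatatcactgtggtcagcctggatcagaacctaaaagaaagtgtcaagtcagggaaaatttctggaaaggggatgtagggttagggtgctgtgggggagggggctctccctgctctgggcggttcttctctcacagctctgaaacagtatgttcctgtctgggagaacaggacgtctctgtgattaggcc

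Each window holds 1 match to GAGGAA, at base -30 from the start in C1qb and at base -193, on the opposite strand, in C1qc. On either strand the motif is in 28.3% of 32851 promoter windows of the same length, so a match is common. Cfp has 2 matches, overlapping no other motif searched, and the windows of C3ar1 and C5ar1 have none. The interferon motifs GAS (TTCNNNGAA) and ISRE, searched on both strands, are in 8.3% and 3.44% of all windows and in none of the 6. A match describes the letters of the window and is no evidence of binding.

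C1qa, the A chain, was at 9.42, 9.19, 9.25, 9.37 and 9.90 on normoxia arrays 1 to 5. On hypoxia arrays 1 to 5 it was at 9.53, 9.85, 9.95, 10.01 and 9.40. Normoxia array 5 lay among the higher hypoxia arrays, and hypoxia array 5 lay among the lower normoxia arrays. The means were 9.42 ± 0.28 and 9.75 ± 0.27 (SD, n = 5 each), a log2 difference of 0.32 (SE 0.15, 95% interval 0.01 to 0.64, limma adjusted p = 0.150). After quantile normalization the difference was 0.21 (limma adjusted p = 0.277).

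C1qc, the C chain, was at 8.16, 8.10, 8.01, 8.20 and 8.50 in normoxia and at 8.49, 8.60, 8.92, 8.72 and 8.16 in intermittent hypoxia. Hypoxia arrays 2, 3 and 4 exceeded every normoxia array, while hypoxia array 5 fell within the normoxia range. The means of 8.19 ± 0.18 and 8.58 ± 0.28 (SD, n = 5 each) differed by 0.38 (SE 0.13, 95% interval 0.11 to 0.66, limma adjusted p = 0.0660). Some other settings moved this difference across the threshold and others did not. SAM, the permutation method that the series' design text names, gave C1qc an adjusted p of 0.0486 and called 21.2% of all genes. With array weights limma gave C1qc an adjusted p of 0.0456, and among only the brighter probe sets 0.0440. After quantile normalization the limma adjusted p was 0.0858. With the trend and robust options it was 0.0574, and with a replicate block 0.123.

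C1qb, the B chain, was read by 3 probe sets that disagreed. The main probe set was at 9.12, 9.14, 9.12, 8.92 and 9.10 in normoxia and at 9.05, 9.20, 9.04, 9.38 and 9.06 in intermittent hypoxia. It differed by 0.07 (SE 0.08, 95% interval -0.10 to 0.24, limma adjusted p = 0.592), and 3 of 5 hypoxia arrays lay below the normoxia mean. Quantile normalization turned this difference to -0.02, and without normoxia arrays 2, 3 and 4 it was 0.03. The third was at 8.22, 8.17, 7.98, 8.14 and 8.87 in normoxia and at 8.61, 8.73, 8.95, 8.92 and 8.13 in intermittent hypoxia. Again normoxia array 5 stood with the hypoxia arrays and hypoxia array 5 with normoxia. Its difference was 0.40 (SE 0.17, 95% interval 0.02 to 0.77, limma adjusted p = 0.142), of the size seen for C1qa and C1qc. The second differed by -0.03 (SE 0.08, 95% interval -0.22 to 0.15, limma adjusted p = 0.808). By their Affymetrix names the main and second probe sets hold probes that can also match other transcripts, and the third carries no such mark. With the third in place of the main probe set, a choice made after its values were seen, the count of called members stayed at 0.

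**Figure D2:**
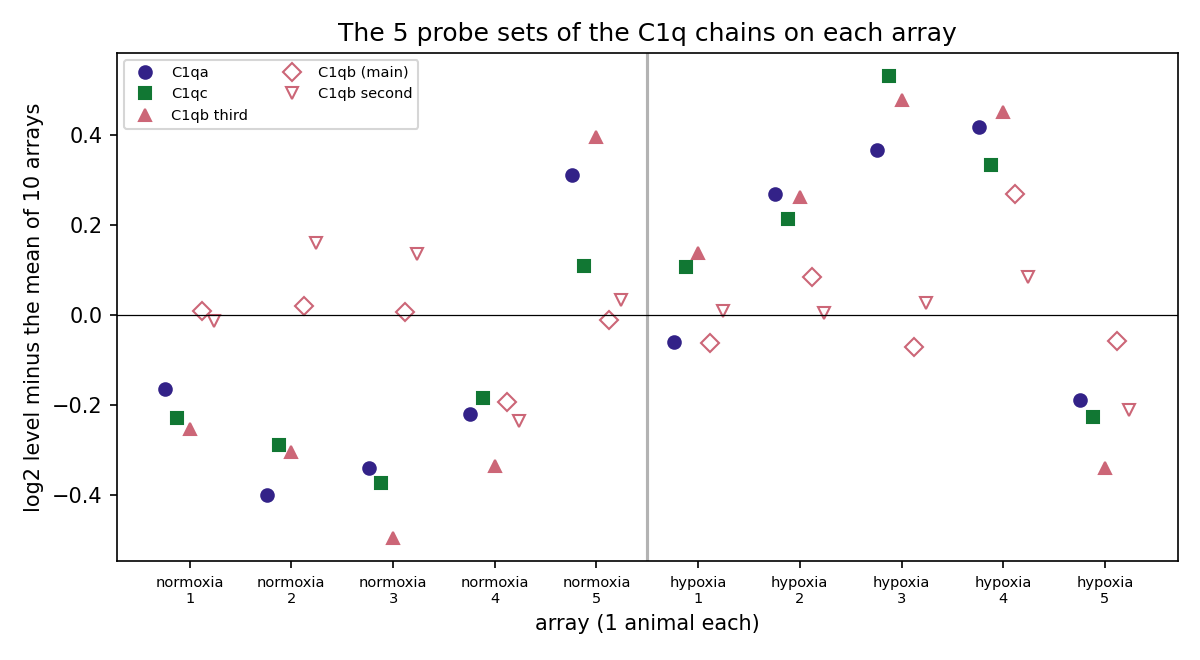
Log2 level of the 5 C1q probe sets on each array, after subtracting each probe set's mean over the 10 arrays; the vertical line divides the normoxia from the hypoxia arrays. The filled symbols, C1qa, C1qc and the third C1qb probe set, stand close together on each array, high on normoxia array 5 and low on hypoxia array 5, while both open C1qb symbols stay nearer to 0 on most arrays.

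Across the 10 arrays C1qa, C1qc and the third C1qb probe set varied together. Over 10 pairs of C1q probe sets, Pearson's r was 0.956 between C1qa and the third C1qb probe set (Spearman's rho 0.903, permutation p = 0.00012 and 0.00087, adjusted 0.0004 and 0.0037). For C1qa and C1qc it was 0.925 (rho 0.915, permutation p = 0.00011 and 0.00054, adjusted 0.0004 and 0.0037), and for the third C1qb probe set and C1qc 0.953 (rho 0.891, permutation p = 6e-05 and 0.00111, adjusted 0.0004 and 0.0037). Without the 2 arrays farthest from the median of the first probe set of a pair, hypoxia arrays 3 and 4, r was 0.927, 0.902 and 0.952. After each group's mean was subtracted it was 0.938, 0.899 and 0.943. By contrast the main C1qb probe set had r = 0.449 with C1qa (rho 0.127, permutation p = 0.204 and 0.735, adjusted 0.408 and 0.980) and r = 0.305 with C1qc (rho -0.04, permutation p = 0.407 and 0.919, adjusted 0.582 and 1). The arrays of a pair are the same lungs, so anything that varies between arrays is shared by both probe sets. Varying together was not particular to the C1q chains. The mean of these 3 probe sets had r from -0.680 with neutrophil markers to 0.824 with endothelial markers over the gene lists read below. After subtracting group means the range was -0.554 to 0.726, with the same lists at its ends. Macrophage and monocyte markers had r = 0.723, and 0.517 after subtracting group means.

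Single arrays decided whether the C1q chains passed. Without normoxia array 5 the difference of C1qa was 0.44 and that of C1qc 0.46, with limma adjusted p values of 0.0267 and 0.0241, and the third probe set of C1qb passed as well (0.54, limma adjusted p = 0.0215). Without hypoxia array 5 C1qc (0.49, limma adjusted p = 0.0168) and the third C1qb probe set (0.53, limma adjusted p = 0.0421) passed, but C1qa did not (0.41, limma adjusted p = 0.0743). Without normoxia arrays 2, 3 and 4 together, which had the narrow spread, the differences shrank to 0.09 for C1qa, 0.25 for C1qc and 0.13 for the third C1qb probe set, none past the threshold, with 2 normoxia arrays left.

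The genes whose values were most like the mean of the 3 C1q chains were sought among 7217 genes at or above the median level, as Pearson's r over the 10 arrays after subtracting group means. They were Cbfb, a subunit of the core-binding transcription factors (r = 0.955), the splicing-related genes Sart3 (0.949) and U2surp (0.928), Tomm22 of the mitochondrial import pore (0.928), and the collagen gene Col5a2 (0.924). That mean holds the main C1qb probe set, which did not follow C1qa and C1qc. With the third C1qb probe set in its place, a choice made after its values were seen, Cbfb (0.961), Tomm22 (0.943), Sart3 (0.932) and U2surp (0.925) stayed among the 5, and Crnkl1, another splicing gene (0.925), took the place of Col5a2. These values describe these lungs only.

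C2, the protease cleaved in the classical and lectin pathways, was at 9.47, 9.02, 9.22, 9.24 and 9.32 in normoxia and at 9.16, 9.34, 9.60, 9.47 and 9.39 in intermittent hypoxia. Hypoxia array 3 alone exceeded the highest normoxia array. The means were 9.26 ± 0.16 and 9.39 ± 0.16 (SD, n = 5 each), a difference of 0.14 (SE 0.10, 95% interval -0.07 to 0.34, limma adjusted p = 0.343). Without normoxia arrays 2, 3 and 4 it was -0.0039, and after quantile normalization 0.05.

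Cfb, the protease of the alternative pathway and the neighbour of C2 on chromosome 17, was at 8.28, 7.86, 8.24, 8.28 and 8.06 in normoxia and at 8.03, 8.16, 7.94, 8.39 and 7.98 in intermittent hypoxia. The values were interleaved, with normoxia array 2 lowest of all and hypoxia array 4 highest. The difference was -0.04 (SE 0.10, limma adjusted p = 0.819), and its 95% interval of -0.26 to 0.18 excludes changes beyond 0.833-fold and 1.14-fold. The Cfb difference was -0.06 without normoxia arrays 2, 3 and 4. Interferon gamma is known to induce both Cfb and C2, and a list of 15 genes of the interferon gamma response was read beside them. Of its 13 measured members 9 rose and none fell, with a median of 0.63, against 8.93% of all genes higher at the same limma threshold. None of the 13 passed without normoxia arrays 2, 3 and 4, and the median was then 0.35. Examples were Psmb8, a subunit of the immunoproteasome (0.63, SE 0.12, limma adjusted p = 0.00903), Igtp, an interferon-induced GTPase (0.67, SE 0.12, limma adjusted p = 0.00914), and the peptide transporter Tap1 (0.72, SE 0.13, limma adjusted p = 0.00881). The differences of Cfb and C2 were not tested against those of the list.

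Cfp encodes properdin, which stabilises the alternative convertase and is made mainly by leukocytes. It was at 6.79, 7.25, 7.17, 6.78 and 7.38 in normoxia and at 6.84, 6.90, 6.83, 7.03 and 6.83 in intermittent hypoxia. The normoxia lungs split into 3 high and 2 low, with a range of 0.605 against 0.198 in intermittent hypoxia, and every hypoxia array lay between them. All 5 hypoxia arrays were below the normoxia mean, and the difference was -0.19 (SE 0.11, 95% interval -0.43 to 0.06, limma adjusted p = 0.272).

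C3ar1, the receptor for the C3a fragment, was at 7.71, 7.68, 7.98, 7.94 and 7.82 in normoxia and at 7.92, 7.93, 7.75, 7.98 and 7.84 in intermittent hypoxia. Hypoxia array 4 was the highest by a small margin and the ranges overlapped almost fully. The difference was 0.06 (SE 0.08, 95% interval -0.11 to 0.22, limma adjusted p = 0.642). Its second probe set differed by -0.0048 (SE 0.07, 95% interval -0.16 to 0.16, limma adjusted p = 0.972). The C3ar1 probe sets differed by 0.12 and 0.10 without normoxia arrays 2, 3 and 4.

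C5ar1, the receptor for the C5a fragment and a strong chemoattractant receptor of neutrophils and macrophages, was at 6.89, 7.07, 7.15, 6.94 and 7.07 in normoxia. In intermittent hypoxia it was at 6.82, 6.84, 6.97, 6.89 and 6.75. All 5 hypoxia arrays lay below the normoxia mean and 4 of them below every normoxia array. The means of 7.02 ± 0.10 and 6.85 ± 0.08 (SD, n = 5 each) differed by -0.17 (SE 0.07, 95% interval -0.32 to -0.02, limma adjusted p = 0.112). SAM gave it an adjusted p of 0.0484. The difference kept its sign when any array was left out, from -0.14 to -0.20, and did not pass with limma in any of these.

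**Figure D3:**
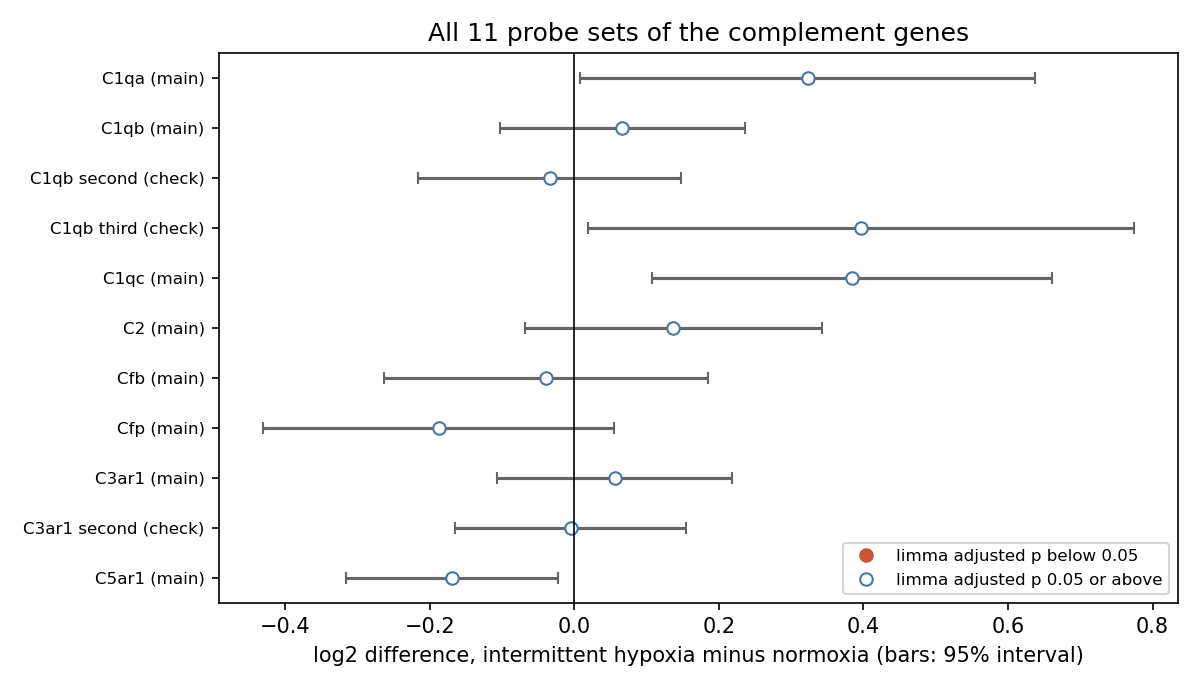
Log2 difference between intermittent hypoxia and normoxia with its 95% interval for all 11 probe sets, in pathway order; "main" marks the probe set used for a gene. The intervals of C1qa, C1qc, the third C1qb probe set and C5ar1 exclude 0 before adjustment, and none of the 11 passed after adjustment over all probe sets.

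The rest of the complement system was read from 4 lists of other components, regulators and receptors, with 32 of 42 genes measured. Of these 2 rose, 1 fell and 29 did not pass, a share near the 12.5% of all genes that passed (8.93% higher and 3.6% lower). The median difference was 0.01, against 0.01 over all genes. The 3 that passed were all receptors of C3 fragments. Itgax, the alpha chain of complement receptor 4, was at 8.78, 8.51, 8.40, 8.48 and 8.69 in normoxia and at 9.43, 9.35, 9.27, 9.39 and 8.73 in intermittent hypoxia. Hypoxia arrays 1 to 4 stood above all normoxia arrays and hypoxia array 5 among them. It rose by 0.66 (SE 0.13, limma adjusted p = 0.00929), or 1.58-fold. Itgb2, the beta chain that complement receptors 3 and 4 share, rose by 0.58 (SE 0.14, limma adjusted p = 0.0226), from 8.79 ± 0.22 to 9.37 ± 0.31 (SD, n = 5 each). Itgam, the alpha chain of complement receptor 3, differed by 0.09 (SE 0.09, limma adjusted p = 0.494). Its probe set had a low mean level of 5.44, against 9.08 for Itgb2, so a change could have been missed. Itgax and Itgb2 are also general markers of dendritic cells and leukocytes.

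Vsig4, a macrophage receptor for C3b, fell by 0.44 (SE 0.10, limma adjusted p = 0.0209), at a mean level of 6.24, below the median of 7.70 over all probe sets. It was at 6.18, 6.50, 6.56, 6.51 and 6.56 in normoxia and at 6.02, 5.84, 5.84, 6.12 and 6.32 in intermittent hypoxia, so that 4 of 5 hypoxia arrays lay below all normoxia arrays. Its call was lost without normoxia array 3 or 4 or hypoxia array 2 or 3, at limma adjusted p values up to 0.0578. That of Itgb2 was lost without normoxia array 2 or 3 or hypoxia array 2, up to 0.0608, and that of Itgax was kept without any single array. Without normoxia arrays 2, 3 and 4 together none of the 3 passed, with differences of 0.50 for Itgax, 0.41 for Itgb2 and -0.35 for Vsig4. Cr2, the complement receptor of B cells, differed by 0.35 (SE 0.16, limma adjusted p = 0.161), and Cd93, on endothelium and myeloid cells, by 0.04 (limma adjusted p = 0.805).

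**Figure D4:**
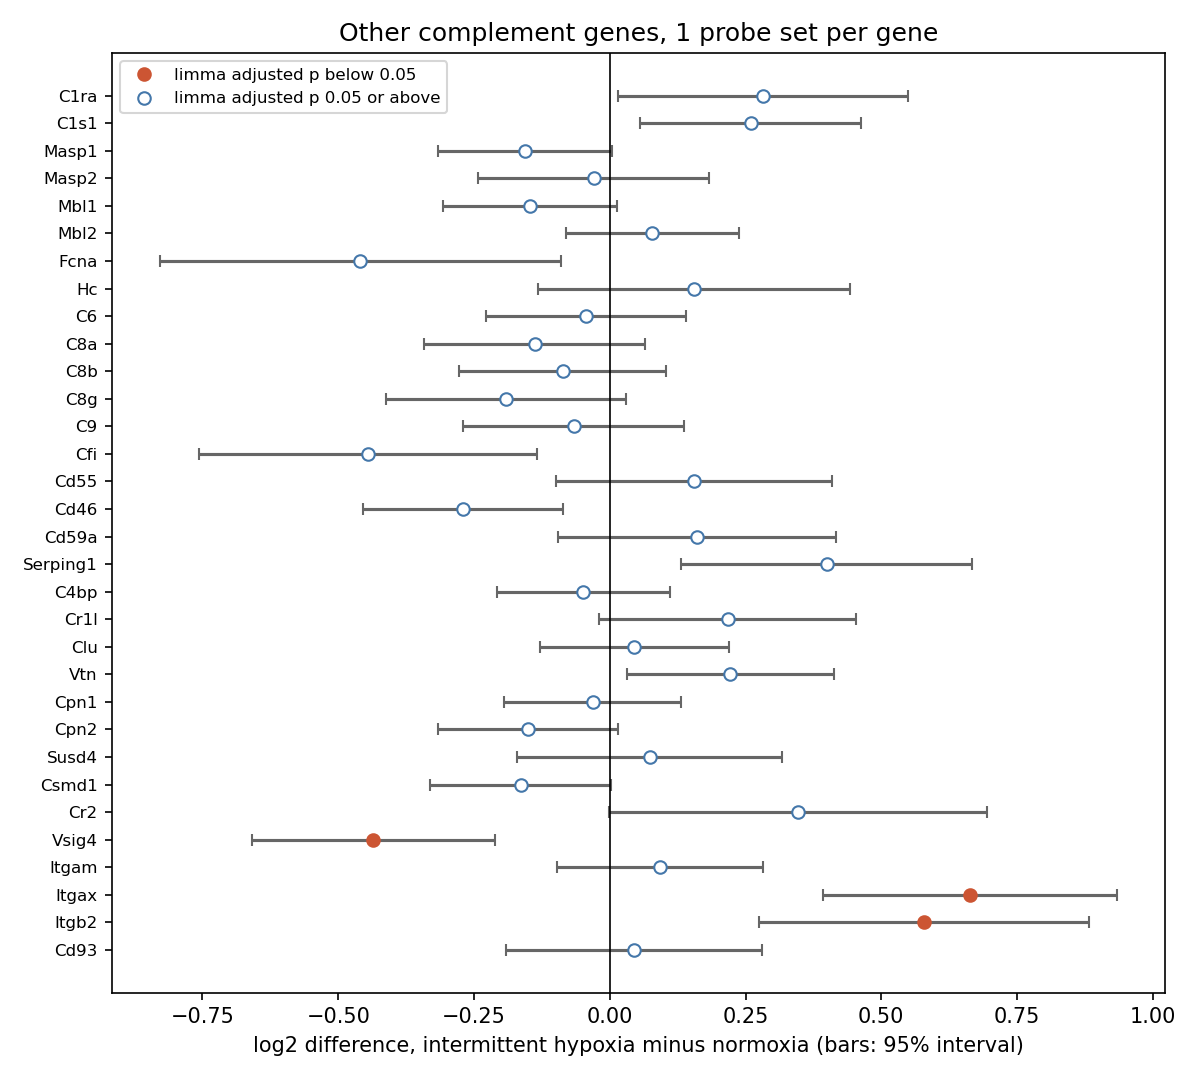
Log2 difference between intermittent hypoxia and normoxia with its 95% interval for the 32 measured genes of the other complement lists, in the order C1 complex and lectin pathway, alternative and terminal pathway, regulators and receptors. Filled points passed the limma test; they are Vsig4, which fell, and Itgax and Itgb2, which rose.

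Among partners of C1q, the proteases C1ra and C1s1 differed by 0.28 (SE 0.12, limma adjusted p = 0.139) and 0.26 (SE 0.09, limma adjusted p = 0.0840). Fcna, a ficolin that starts the lectin pathway, differed by -0.46 (SE 0.17, limma adjusted p = 0.0909), and the lectin pathway protease Masp1 by -0.16 (SE 0.07, limma adjusted p = 0.167), with its other 4 probe sets from -0.31 to 0.02. None of the 7 measured genes of this list passed. Among the alternative and terminal genes none of 6 passed either. Hc, which encodes C5, differed by 0.16 (SE 0.13), C8g by -0.19 (SE 0.10), C8a by -0.14 (SE 0.09) and C8b by -0.09 (SE 0.09), with limma adjusted p values from 0.220 to 0.527.

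None of 13 measured regulators passed, and 3 came close. Serping1, the inhibitor of C1r and C1s, was higher in 4 of 5 hypoxia arrays than in any normoxia array and differed by 0.40 (SE 0.12, limma adjusted p = 0.0534). Cd46, a membrane cofactor for C3b cleavage, differed by -0.27 (SE 0.09, limma adjusted p = 0.0554). Cfi, the protease that inactivates C3b, differed by -0.45 (SE 0.14, limma adjusted p = 0.0607). Vtn, an inhibitor of the terminal complex, differed by 0.22 (SE 0.09, limma adjusted p = 0.109), and its other probe set by -0.31. Cd55 differed by 0.15 (limma adjusted p = 0.388), and its other probe set by 0.35 (limma adjusted p = 0.0592).

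Markers of the cells that make or carry complement proteins were read on the same arrays, where 8.93% of all genes rose and 3.6% fell. Without normoxia arrays 2, 3 and 4 no gene of these marker lists passed, and the medians of the lists for macrophages and monocytes, neutrophils and B cells were 0.14, -0.10 and 0.58. Of 17 markers of macrophages and monocytes 7 rose and 1 fell, with a median of 0.16 and a mean centred log2 level of -0.16 to -0.03 over the normoxia arrays against -0.02 to 0.27 over the hypoxia arrays. Cd68, a lysosomal macrophage marker, rose by 0.74 (SE 0.13, limma adjusted p = 0.00721) and the signalling adaptor Tyrobp by 0.58 (SE 0.11, limma adjusted p = 0.00872). Ly86, a partner of a toll-like receptor homologue, rose by 0.44 (SE 0.08, limma adjusted p = 0.00995), and the scavenger receptor Cd163, found on interstitial macrophages, fell by 0.62 (SE 0.12, limma adjusted p = 0.0114). Of the 17 differences 13 were positive and 4 negative. Besides Cd163 the negative ones were Cd14 (-0.34), Mertk (-0.29) and Adgre1 (-0.21), which did not pass (limma adjusted p from 0.0614 to 0.121). None of 7 alveolar macrophage markers passed, with the 4 smallest adjusted p values in Pparg, Krt79, Siglecf and Olr1 (0.0597 to 0.0794 with limma). Of the 7 differences 6 were positive and 1 negative. The median was 0.24, and it was also 0.24 without normoxia arrays 2, 3 and 4. The mean centred level of this list was -0.22 to -0.10 over the normoxia arrays and -0.26 to 0.34 over the hypoxia arrays. Among the hypoxia arrays, array 5 was lowest in this list and in C1qa. Among the normoxia arrays, array 5 was lowest in the list but highest in C1qa. Over the 10 arrays the list had r = 0.678 with the mean of C1qa, C1qc and the third C1qb probe set. After subtracting group means r was 0.478. The part of these cells in the C1q values was not tested.

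Of 9 markers of neutrophils, cells that carry C5ar1 and Cfp, 1 fell and none rose, against 3.6% of all genes lower. All 9 differences were negative, with a median of -0.33, where 5800 of all 12393 genes had a negative difference. The marker that fell was the granule protease Mmp8 (-0.49, SE 0.14, limma adjusted p = 0.0441), at a mean level of 7.60. The receptor Cxcr2 differed by -0.44 (SE 0.15, limma adjusted p = 0.0782). The brightest markers of the list, S100a8, S100a9 and Csf3r, differed by -0.18, -0.08 and -0.16 (limma adjusted p from 0.557 to 0.906). The list's mean centred level spanned -0.36 to 0.65 in normoxia against -0.38 to 0.16 under hypoxia. The part of neutrophils in the C5ar1 and Cfp values was not tested. Of 6 B cell markers 5 rose, with a median of 0.78 and 8.93% of all genes higher, beside Cr2, which did not pass. Of 9 genes of dendritic cells and antigen presentation by MHC class II 4 rose, all of them MHC class II genes (H2-Aa, H2-Ab1, H2-Eb1 and Cd74), which B cells and interferon-treated cells also express. The dendritic cell genes Flt3, Xcr1 and Cd209a differed by -0.19, -0.04 and -0.0037, and Itgae by 0.20 (limma adjusted p = 0.114). None of these passed the threshold, beside the rise of Itgax. The part of B cells or dendritic cells in these values was not tested.

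Tissue cells that make early complement components gave 0 to 4 calls a list, beside 8.93% of all genes higher and 3.6% lower. None of 7 type 2 cell markers passed (median 0.07), 1 of 5 type 1 cell markers rose (median 0.18) and none of 5 endothelial markers passed (median 0.23). These medians turned to -0.09, -0.01 and -0.04 without normoxia arrays 2, 3 and 4. Of 9 fibroblast and mesothelial markers 4 rose (median 0.22), and of 6 club cell markers 1 fell, the mucin gene Muc5b (median -0.19). None of 8 acute phase genes passed, with a median of -0.01, Serpina3n at 0.49 (SE 0.18, limma adjusted p = 0.0822) and Lcn2 at 0.75 (SE 0.37, limma adjusted p = 0.185) among them. None of 5 hepatocyte markers passed (median 0.28), and 1 of 4 adipocyte markers fell, the hormone gene Retn (median -0.31). Without normoxia arrays 2, 3 and 4 the fibroblast and mesothelial median was 0.30 and the club cell median -0.28. The acute phase, hepatocyte and adipocyte medians were then -0.17, 0.36 and -0.32.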

How the data were processed

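Whole-lung RNA of 10 mice was measured on 10 arrays. The authors deposited log2 probe set levels, and per the submitters' processing notes RMA and affy were used; their settings are not stated in the sources read. The spread over probe sets differs between arrays, so how they were normalized is uncertain. No filter on low values was applied. Of 22626 probe sets the array annotation gave 1 symbol to 20380, several to 691 and none to 1555; an unnamed probe set is not known to lack a gene.

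The groups were compared on all 10 arrays with limma 3.58.1 (lmFit and eBayes, R 4.3.3). Tests were two-sided, p-values were adjusted by Benjamini-Hochberg across every probe set, and the threshold was 0.05. The p-values measure the spread between animals; intervals are 95% from the same fit. Named genes were the members and the other complement genes that passed or, in each list, up to 4 with the smallest p. Up to 4 of each marker list, 3 lung markers and the 5 genes most alike to C1q were also named. Itgam, Cr2 and Cd93 were added as partners after their values were seen. Cd55, the macrophage markers Cd14, Mertk and Adgre1 and the dendritic cell genes Flt3, Xcr1, Itgae and Cd209a were likewise added with their values known. So were the neutrophil markers S100a8, S100a9 and Csf3r. Gene lists have no test of their own. Members, lists and rules were chosen with earlier results of these data known. Alternatives were quantile normalization, median centring, a level filter, eBayes with trend and robust options, arrayWeights, a threshold of 0.10, SAM with 100 permutations, a replicate block, averaging each gene's probe sets, and leaving out arrays; SAM with the median of false calls was added after seeing the data. Correlations used 100000 resamples. limma and SAM were tested on simulated data.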

Additional observations from a re-analysis of the deposited data

Results flagged for a closer look

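In 5 of the 28 groups of 5 arrays examined, 1 array stood apart from the others, by a gap to its nearest neighbour of over 0.71 of the group's range; chance alone flags some groups by this measure. The main C1qb probe set was lowest on normoxia array 4, at 8.92, with a gap of 0.855 of the range. The third C1qb probe set was highest on normoxia array 5, at 8.87 (0.728 of the range), and the second was lowest on hypoxia array 5, at 8.47 (0.726 of the range). Itgax was lowest among the hypoxia arrays on array 5, at 8.73 (0.778 of the range). Vsig4 was lowest among the normoxia arrays on array 1, at 6.18 (0.847 of the range).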

How the results depend on the processing

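With limma, 2699 probe sets passed, with 0 members in either direction and 2 other complement genes higher and 1 lower. Quantile normalization, median centring and eBayes with trend and robust options kept these counts within 1.5 times. The filter to brighter probe sets gave 1 member higher. With arrayWeights 4132 probe sets passed, with 1 member higher, 4 other complement genes higher and 3 lower. At an adjusted p below 0.10 there were 4954, with 1 member higher, 4 other genes higher and 4 lower. SAM called 4609, with 1 member higher and 1 lower and 3 other genes lower; with the median of false calls it called 7199, with 1 member higher and 1 lower, 5 other genes higher and 6 lower. The 1 member higher was C1qc in each of these and the 1 lower C5ar1. Averaging each gene's probe sets gave 2 other genes lower. Leaving out 1 array at a time gave 1003 to 4800 probe sets, 0 to 2 members higher, 1 to 5 other genes higher and 0 to 3 lower. Without normoxia arrays 2, 3 and 4 together 16 passed, with 0 other genes higher and 0 lower; the cause was not tested. The labels do not say whether replicate numbers pair the lungs. Of 5 normoxia lungs 1 correlated best with the hypoxia lung of its own number, and 5 lungs are too few to decide. The fit with the replicate block called 1755 probe sets and 2 other genes lower.

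Some small differences changed sign. C1qb was -0.021 after quantile normalization and C2 was -0.0039 without normoxia arrays 2, 3 and 4. Leaving out 1 array, Cfb ran from -0.11 to 0.00037 and the second C1qb probe set from -0.10 to 0.014. The second C3ar1 probe set was 0.028 after quantile normalization, 0.10 without normoxia arrays 2, 3 and 4, and -0.038 to 0.038 leaving out 1 array. C5ar1, Cfp, Vsig4 and Itgam, among others, lay below the median level of all probe sets, where array signal is less reliable.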
